A study of Mus musculus with 2 samples.

Results

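Ccr7, S1pr1, S1pr5 and Cx3cr1 are 4 receptor genes that steer lymphocytes into and out of lymphoid organs and through tissue. They were chosen by name, as 4 of the 55357 features counted in each library. Their transcripts were measured by single-cell RNA sequencing of CD45-positive live cells (7-AAD-negative), taken by sorting from lungs of C57 mice with metastases of the mouse melanoma line B16F10. The tumour cells carried IRF7 with the change C435A, a cysteine replaced by an alanine, in the C435A library, and wild-type IRF7 in the WT library (C435A and WT for short, beside values). IRF7 is a transcription factor that drives interferon genes, and the series title asks how its nitrosylation in melanoma bears on immunity against the tumour. The mouse cells measured here were immune cells of the host, for which the labels give no edited genotype, while the cell type label reads melanoma cell for both libraries. How many animals each library holds, and of what age, the sources used here do not say. All levels and differences below describe these 2 libraries.

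CCR7 binds the chemokines CCL19 and CCL21 and brings naive T cells, B cells and mature dendritic cells into lymph nodes. S1PR1 is the receptor with which lymphocytes follow sphingosine 1-phosphate (S1P) out of lymph nodes and thymus into lymph and blood. It is transcribed under the factor KLF2 and pulled from the surface by CD69. S1PR5 serves the exit of natural killer (NK) cells from bone marrow and lymph nodes, and its gene is transcribed in mature NK cells and in effector CD8 T cells. CX3CR1 binds fractalkine, the product of Cx3cl1, and marks cytotoxic effector T cells, mature NK cells and monocytes that patrol vessels.

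The C435A library held 10373 barcodes and 59615672 unique molecular identifiers (UMIs, each marking 1 captured RNA molecule), and the WT library held 10156 barcodes and 54934397 UMIs. After filtering, 9419 cells of the C435A library and 9187 of the WT library were kept, with medians of 3198.0 UMIs in C435A and 2683.0 in WT, and 23 kept barcodes occurred in both libraries. Cells were assigned to types by UMIs of marker genes, none of which is a receptor described here. The T cell gate (Cd3d, Cd3e, Cd3g and Trac) held 3773 cells of the C435A library and 3697 of the WT library. The B cell gate (markers such as Cd79a, Cd79b and Ms4a1) held 2154 cells in C435A and 2601 in WT. The NK gate (Ncr1, Klrb1c, Klre1, Klra4, Klra8 and Klri2) held 851 cells in C435A and 354 in WT, and the dendritic cell (DC) gates together held 177 cells in C435A and 214 in WT. Each group was 1 library, so no difference has a replicate check, no test between the tumours was made, and values in brackets are 95% intervals that cover counting error only. Levels are given as CPM, a gene's UMIs scaled to the total UMIs of a gate, and ratios as log2 values with the C435A library on top.

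The T cell gate differed in its makeup between the libraries, so values are also given by state. Cells with few or no effector UMIs and with naive markers (Lef1, Tcf7, Dapl1 and Igfbp4) were 13.5% of CD8 T cells in the C435A library and 37.3% in the WT library. Cells with UMIs of cell-cycle genes such as Mki67 and Top2a were 36.1% of CD8 T cells in the C435A library and 2.68% in the WT library. Among CD4 T cells the naive gate held 27.6% in the C435A library and 72.1% in the WT library, and the effector gate (Ccl5, Nkg7, Gzma, Gzmb, Gzmk, S100a4 and Cxcr6) held 43.7% in C435A and 12.99% in WT. Cycling CD8 T cells were deep, with medians of 9127.0 UMIs in the C435A library and 7314.0 in the WT library, against 2718.5 in C435A and 2912.0 in WT in the naive gate. They therefore weighed heavily in sums of UMIs, and ratios are also given per cell where the result differs.

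**Figure D1:**
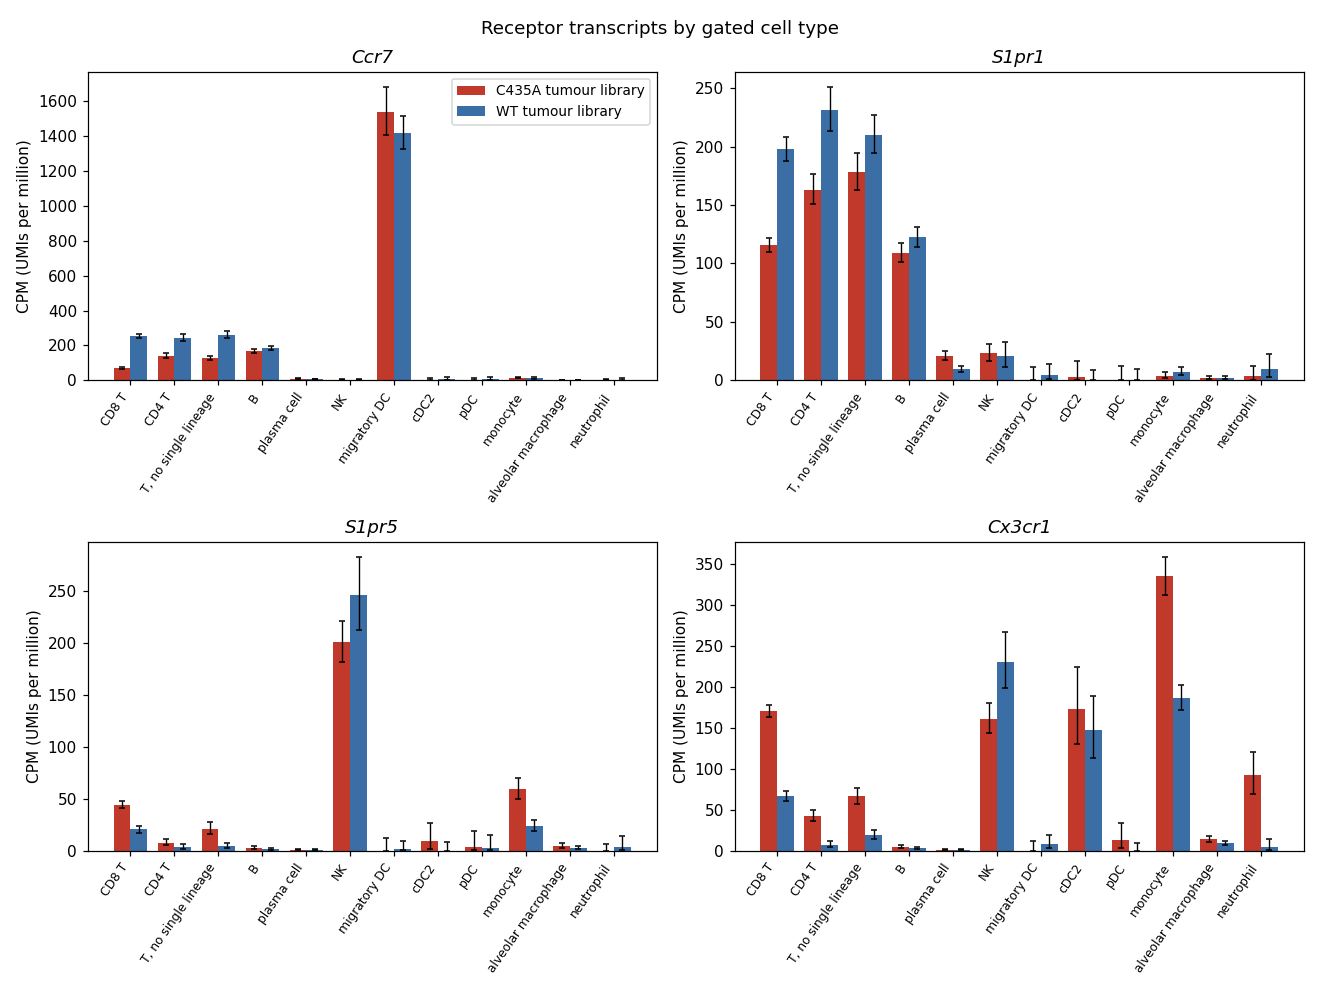
Level of each receptor gene (y axis, CPM) in 12 gated cell types (x axis), with the C435A library in red left of the WT library in blue. Bars are summed UMIs of the gate and error bars are exact 95% Poisson intervals. Ccr7 was highest in migratory DC, S1pr1 in T cells, S1pr5 in NK cells, and Cx3cr1 was spread over monocytes, NK cells, type 2 conventional DC and T cells.

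Ccr7 (ENSMUSG00000037944), the lymph node entry receptor, is found at 99144196 to 99155077 of chromosome 11 (GRCm38, minus strand, 3 exons). Its highest level was in migratory DC, the mature DC gated by Fscn1, Cacnb3, Ccl22, Apol7c and Il4i1. These cells held 485 UMIs in 53 cells of the C435A library and 878 UMIs in 81 cells of the WT library, or 1541 CPM in C435A and 1417 in WT, a ratio of 0.12 [-0.04, 0.28], short of 1.5-fold, which 10.2% of genes passed upwards and 16.3% downwards. A Ccr7 UMI was found in 45 of 53 migratory DC (84.9%) in the C435A library and in 69 of 81 (85.2%) in the WT library. Ccr7 in migratory DC was thus alike in the 2 libraries within counting error in CPM, while per cell the ratio was -0.24 [-0.41, -0.08]. The other DC gates held almost none of it: type 1 conventional DC had 0 UMIs in both libraries, and type 2 conventional DC and plasmacytoid DC each had 0 UMIs in C435A and 2 in WT. Over all DC gates the ratio was -0.28 [-0.45, -0.12], with migratory DC making up 29.9% of DC in the C435A library and 37.9% in the WT library.

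Naive T cells came next in the order of Ccr7 levels. The CD8 naive gate had 347 CPM in the C435A library and 334 CPM in the WT library, and the CD4 naive gate had 342 CPM in C435A and 312 in WT; the intervals of the 2 gates overlapped in each library. In the C435A library the order went on with B cells (166 CPM), the CD4 effector gate (123 CPM) and the CD8 effector gate (109 CPM), of which the effector gates overlapped. In the WT library the CD8 effector gate (224 CPM) stood above B cells (184 CPM), with intervals that did not overlap. Cells of the CD8 effector gate also carried the naive markers, at 846 CPM in the C435A library and 1554 CPM in the WT library. At least 1 UMI of these markers was found in 72.4% of its cells in C435A and 85.3% in WT, so it is not a gate of effector cells alone. NK cells held 4 Ccr7 UMIs in the C435A library and 0 in the WT library, where 3 counts, the limit that a count of 0 allows, come to 3.82 CPM.

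Between the tumours, Ccr7 was lower in CD8 T cells of the C435A library. They held 954 Ccr7 UMIs in 2216 cells of the C435A library and 1768 UMIs in 1981 cells of the WT library, or 70.5 CPM in C435A and 254 in WT, a ratio of -1.85 [-1.97, -1.74] in CPM and -1.05 [-1.17, -0.94] per cell. In CD4 T cells the levels were 141 CPM in the C435A library and 244 CPM in the WT library, a ratio of -0.79 [-0.96, -0.62]. In B cells they were 166 CPM in C435A and 184 in WT, a ratio of -0.15 [-0.27, -0.03], but 0.10 [-0.03, 0.22] per cell. Of the 4 receptor genes, 2 were lower by 1.5-fold in CD8 T cells (Ccr7 and S1pr1), against 21.0% of the 12870 genes with at least 20 UMIs there, and 2 were higher (S1pr5 and Cx3cr1), against 18.4%. Thinned to 1000 UMIs per cell, 9.48% of CD8 T cells in C435A and 21.7% in WT had a Ccr7 UMI, a difference of -12.3 points [-14.5, -10.1], against 0.209% in C435A and 0.0% in WT of alveolar macrophages, taken as background. Unthinned, the CD8 shares were 22.9% in C435A and 48.6% in WT; depths are given with S1pr5. In CD4 T cells 1 was lower (Ccr7), against 14.0% of 10679 genes, and 2 were higher (S1pr5 and Cx3cr1), against 13.8%.

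The Ccr7 difference varied between T cell states. In the naive gates, where none of the 2 receptor genes with at least 20 UMIs (Ccr7 and S1pr1) passed 1.5-fold (7.72% of genes higher and 8.55% lower for CD8, 9.83% and 10.2% for CD4), the ratio was 0.05 [-0.15, 0.25] for CD8 and 0.13 [-0.11, 0.37] for CD4 T cells, and in the CD4 effector gate it was -0.16 [-0.60, 0.31]. There 1 of the 4 was higher by 1.5-fold (Cx3cr1, against 14.3% of genes) and 1 lower (S1pr5, from 26 UMIs, against 14.1%), with intervals that both held 0. In the CD8 effector gate Ccr7 was 109 CPM in the C435A library and 224 CPM in the WT library (-1.04 [-1.2, -0.88]), the 1 receptor gene of 4 that was lower by 1.5-fold there, against 13.4% of genes, beside 2 that were higher (S1pr5 and Cx3cr1), against 8.82%. In the CD8 cycling gate it was 22.0 CPM in 799 cells of the C435A library and 131 CPM in 53 cells of the WT library (-2.58 [-2.98, -2.16]), 1 of 4 again, against 23.9% of genes lower, with none of 4 higher, against 10.7%. UMIs of the melanoma genes Pmel, Mlana, Dct and Tyrp1, none of them at 0, summed to 612 CPM in these cycling cells of the C435A library and 3956 CPM in those of the WT library, and their part in the result was not tested. With equal weight for the naive, effector and cycling gates in both libraries, the CD8 ratio of Ccr7 was -0.53. In cycling CD4 T cells Ccr7 was 81.1 CPM in 192 cells of C435A and 119 CPM in 38 cells of WT (-0.55 [-1.03, -0.07]). A single cell gave 31 of the 125 UMIs in C435A there, and a single cell gave 35 of the 183 in the CD4 effector gate of C435A. Thinned to 1000 UMIs, 2.6% of cycling CD4 T cells in C435A and 13.2% in WT had a Ccr7 UMI, a difference of -10.55 points [-24.8, -2.43]. In the CD4 effector gate the thinned shares were 6.63% in C435A and 9.375% in WT, with an interval of -10.53 to 2.576 points. With equal weight for the naive and effector gates the CD4 ratio was 0.05, and with the cycling gate as well it was -0.06.

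**Figure D2:**
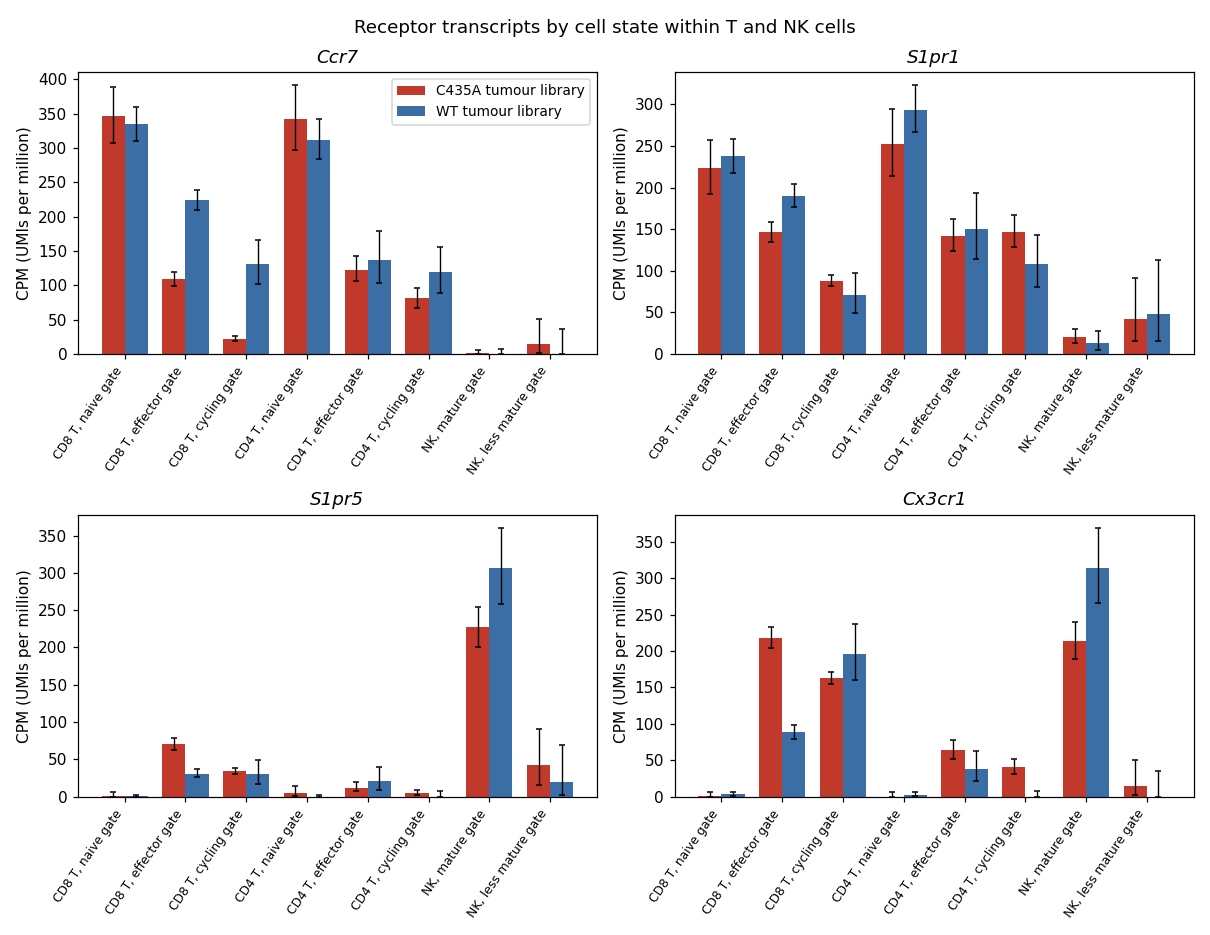
Level of each receptor gene (y axis, CPM) by cell state within CD8 T, CD4 T and NK cells (x axis), with the C435A library in red left of the WT library in blue; error bars are exact 95% Poisson intervals. Ccr7 and S1pr1 were highest in the naive gates, where the libraries overlapped, and S1pr5 and Cx3cr1 were near 0 there.

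The effector gate takes in cells from 3 effector UMIs upwards, and the cells in it were not alike: the 7 effector genes made up 28220 CPM of that gate in the C435A library and 9795 CPM in the WT library. CD8 T cells outside the cycling gate were therefore also split by the share of their UMIs that came from these genes, in 6 bins chosen after the values were seen. Ccr7 went down along the bins in both libraries. Below 0.1% it was 358 CPM in the C435A library and 321 CPM in the WT library, and between 0.3% and 1% it was 180.2 CPM in C435A and 173 in WT. Between 1% and 2% it was 44.6 CPM in 119 cells of the C435A library and 158 CPM in 69 cells of the WT library, a ratio of -1.83 [-2.62, -1.06]. From 5% upwards it was down to 1 UMI in each library. With the bins given equal weight in both libraries the ratio of Ccr7 was -0.11.

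S1pr1 (ENSMUSG00000045092), the egress receptor, is found at 115710433 to 115715072 of chromosome 3 (minus strand, 2 exons). Its UMIs were mostly in T cells, 68.0% of those in the C435A library and 67.0% of those in the WT library, and in B cells, 17.3% in C435A and 20.2% in WT. The CD4 naive gate had the highest level in both libraries, 252 CPM in the C435A library and 294 CPM in the WT library, with the CD8 naive gate at 223 CPM in C435A and 238 in WT overlapping it. S1pr1 was lower but still high in the effector gates, at 146 CPM in C435A and 189.8 in WT in CD8 and 142 CPM in C435A and 149.8 in WT in CD4 T cells. In that it differed from Ccr7, which was nearly absent from the CD8 T cells richest in effector UMIs, where S1pr1 was still 127 CPM in the C435A library and 133 CPM in the WT library. NK cells had 23.0 CPM in the C435A library and 20.4 CPM in the WT library (0.17 [-0.68, 1.10], from 45 UMIs in C435A and 16 in WT), and all DC gates together held 2 UMIs in C435A and 4 in WT.

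Over all CD8 and all CD4 T cells S1pr1 was lower in the C435A library in CPM, and per cell the intervals held 0. CD8 T cells had 1562 S1pr1 UMIs in the C435A library and 1374 in the WT library, which is 116 CPM in C435A and 198 in WT, a ratio of -0.77 [-0.88, -0.67]. Per 100 cells the same UMIs were 70.5 in the C435A library and 69.4 in the WT library, a ratio of 0.02 [-0.08, 0.13]. CD4 T cells were at 163 CPM in the C435A library and 232 CPM in the WT library (-0.50 [-0.67, -0.34]), and per cell the ratio was -0.07 [-0.24, 0.10]. So the mean number of S1pr1 UMIs per CD8 T cell differed by less than counting error, and they were a smaller share of captured UMIs in the C435A library. Within gates the ratio was -0.09 [-0.34, 0.15] in CD8 naive cells, -0.38 [-0.53, -0.22] in CD8 effector cells, where it was also lower per cell (-0.26 [-0.41, -0.10]), and 0.33 [-0.15, 0.84] in CD8 cycling cells. In B cells S1pr1 was 109 CPM in the C435A library and 122 CPM in the WT library (-0.17 [-0.32, -0.02]), and 0.08 [-0.08, 0.23] per cell. Plasma cells, gated by Sdc1, Derl3, Tnfrsf17 and Txndc5, had 20.9 CPM from 121 UMIs in the C435A library and 9.42 CPM from 57 UMIs in the WT library (1.15 [0.68, 1.63]). Per cell the plasma cell ratio was 0.74 [0.27, 1.22]. Thinned to 1000 UMIs, 1.52% of plasma cells in C435A and 1.16% in WT had an S1pr1 UMI, a difference of 0.36 points [-2.00, 2.49].

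KLF2 and CD69 act on S1PR1, so S1pr1 was also set beside their transcripts within CD8 T cells. S1pr1 was 122 CPM in cells with a Klf2 UMI and 88.0 CPM in cells without in the C435A library, and 206 against 167 CPM in the WT library. In CD4 T cells with and without a Klf2 UMI it was 184 against 120 CPM in C435A and 268 against 165 CPM in WT. With naive, effector and cycling cells pooled and depth not matched, S1pr1 thus went with Klf2 in both lineages and both libraries. It did not go with Cd69 in the same way: S1pr1 was 116 CPM in CD8 T cells with a Cd69 UMI and 115 CPM in those without in the C435A library, and 179 against 211 CPM in the WT library. CD69 acts on the S1PR1 protein, which was not measured.

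**Figure D3:**
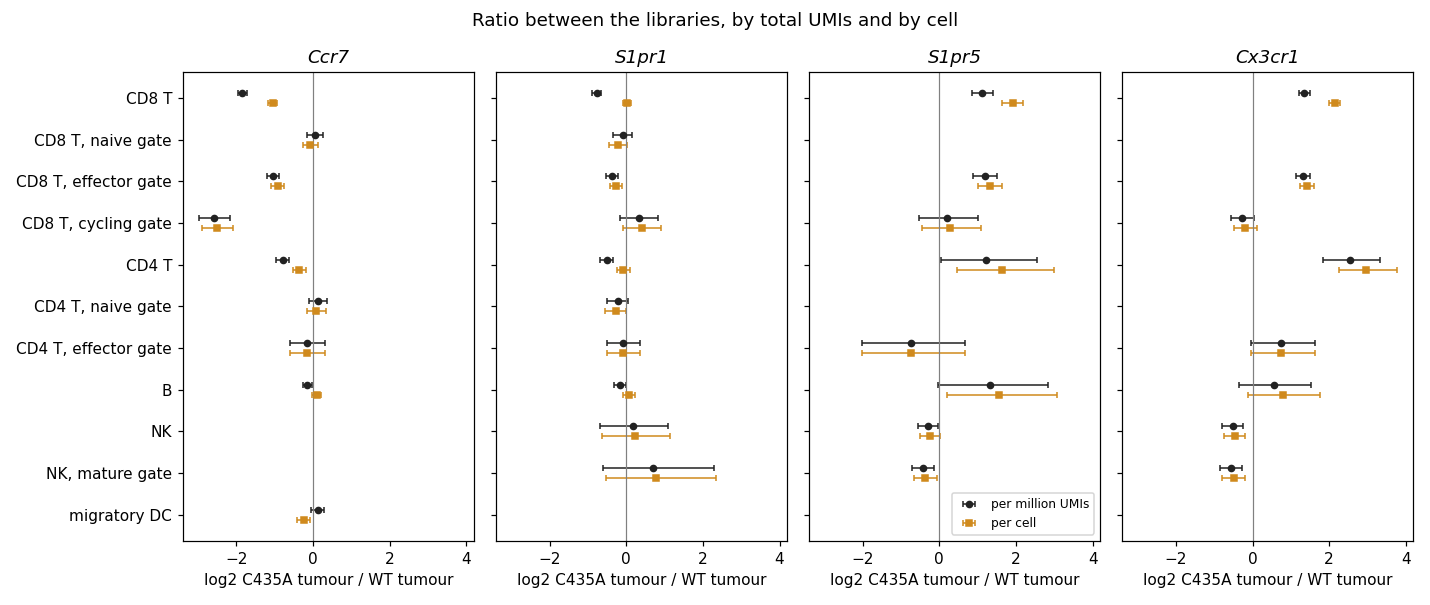
Log2 ratio, C435A library over WT library (x axis), for each receptor gene by gate (y axis), in CPM in black and per cell in orange; bars are exact 95% intervals for counting error, and gates with too few UMIs are left blank. In CD8 T cells S1pr1 lies at -0.77 in CPM and at 0.02 per cell, while the other receptor genes keep their direction on both scales.

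S1pr5 (ENSMUSG00000045087), the exit receptor of NK cells, is found at 21242912 to 21248443 of chromosome 9 (minus strand, 3 exons). An unprocessed gene model on the plus strand, Gm48303, overlaps it. The 250 bases before its annotated start (RefSeq, GRCm38.p6, chr9:21248444-21248693, minus strand, 5′ to 3′) are shown because S1pr5 varied together with Cx3cr1 over the gates, with capitals marking the motif CACCC, bound by KLF factors, or its reverse GGGTG:
S1pr5: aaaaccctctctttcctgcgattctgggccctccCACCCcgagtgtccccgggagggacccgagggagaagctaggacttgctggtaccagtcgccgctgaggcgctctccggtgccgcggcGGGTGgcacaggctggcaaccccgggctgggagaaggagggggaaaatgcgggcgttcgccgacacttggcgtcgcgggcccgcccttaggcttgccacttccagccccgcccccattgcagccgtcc
The window held 2 such matches with 69.2% G and C, and 52.0% of 32851 promoters of this length held at least 1. The same window of Cx3cr1 held 1 match. The T-box motif GTGTGA and the E-box CAGGTG, searched on both strands, were found in neither window, and 12.3% and 17.2% of promoters held them; the 2 matches shown do not overlap.

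NK cells had the highest S1pr5 level in both libraries. They held 393 UMIs in 851 cells of the C435A library and 193 UMIs in 354 cells of the WT library, or 200.5 CPM in C435A and 246 in WT, a ratio of -0.29 [-0.55, -0.04]. The mature NK gate, with at least 2 UMIs of Klrg1, Itgam and Zeb2, had 227 CPM in the C435A library and 306 CPM in the WT library (-0.43 [-0.73, -0.13]). The less mature NK gate (Cd27, Emb, Thy1 and Ltb) held 6 S1pr5 UMIs in 56 cells of C435A and 2 UMIs in 35 cells of WT. Thinned to 1000 UMIs per cell, 20.1% of NK cells in the C435A library and 22.2% in the WT library had an S1pr5 UMI, a difference of -2.10 points [-7.48, 2.90], with 36 shallower cells left out in C435A and 12 in WT. Unthinned, the shares were 34.8% in C435A and 39.6% in WT, at median depths of 2009.0 UMIs in C435A and 1966.0 in WT. S1pr5 in NK cells was thus a little lower in the C435A library in CPM, while per cell the ratio was -0.24 [-0.49, 0.02]. The share of cells with a UMI did not separate the libraries.

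S1pr5 ran the other way in CD8 T cells, and also in monocytes. CD8 T cells held 594 UMIs in the C435A library and 141 in the WT library. That was 43.9 CPM in C435A and 20.3 in WT, a ratio of 1.12 [0.85, 1.39] in CPM and 1.91 [1.65, 2.19] per cell. The CD8 naive gate held 1 UMI in each library. The CD8 effector gate had 70.6 CPM in the C435A library and 30.9 CPM in the WT library (1.19 [0.89, 1.51]), and the cycling gate had 34.7 CPM in C435A and 30.4 in WT (0.19 [-0.54, 1.02]). CD4 T cells held 28 UMIs in C435A and 8 in WT, and B cells 17 in C435A and 7 in WT. In B cells S1pr5 was thus the 1 of the 4 receptor genes that passed 1.5-fold upwards (4.29% of 11799 genes did, and 6.55% passed it downwards). Its interval of -0.03 to 2.82 held 0 in CPM, while per cell the ratio was 1.55 [0.21, 3.06]. The B cell UMIs came from 10 cells in C435A and 4 cells in WT. At 2.73 CPM in C435A and 1.10 in WT, the level was below that of alveolar macrophages (4.42 in C435A and 2.42 in WT). The NK marker genes summed to 33.4 CPM in B cells of C435A and 10.8 in those of WT, and their part in the result was not tested. Thinned to 1000 UMIs, 5.42% of CD8 T cells in the C435A library and 1.72% in the WT library had an S1pr5 UMI, a difference of 3.70 points [2.6, 4.84], against 0.418% in C435A and 0.46% in WT of alveolar macrophages, which serve as background. Alveolar macrophages had median depths of 7622.0 UMIs in C435A and 11742.0 in WT, and CD8 T cells of 4355.5 in C435A and 3142.0 in WT. Unthinned, the CD8 shares were 17.5% in C435A and 4.44% in WT, and thinning left out 21 CD8 T cells of C435A and 8 of WT. Monocytes held 9.951% of S1pr5 UMIs in C435A and 13.5% in WT. Their level was 59.21 CPM in the C435A library and 23.56 CPM in the WT library. The monocyte ratio was 1.329 [0.904, 1.767] in CPM and 1.009 [0.584, 1.446] per cell. Nonclassical monocytes, gated as given with Cx3cr1, had 114 CPM in C435A and 57.05 in WT, above the CD8 effector gate in both libraries.

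Cx3cr1 (ENSMUSG00000052336), the fractalkine receptor, is found at 119901616 to 120069879 of chromosome 9 (minus strand), an interval that spans other annotated genes, among them Wdr48 and Csrnp1. Whether counting used the strand is not given in the sources used here, so reads from overlapping genes cannot be told apart for S1pr5 and Cx3cr1. Monocytes had 334 CPM in the C435A library and 186 CPM in the WT library, where mature NK cells had 314 CPM. The monocyte ratio was 0.845 [0.686, 1.005] in CPM and 0.524 [0.365, 0.684] per cell. Classical monocytes, those outside the nonclassical gate, had 213 CPM in 223 cells of C435A and 105 CPM in 282 cells of WT. Their ratio was 1.02 [0.74, 1.29] in CPM and 0.81 [0.54, 1.09] per cell. Nonclassical monocytes, gated by Ace, Treml4, Cd300ld and Eno3, had 466 CPM in 239 cells of C435A and 316 CPM in 173 cells of WT. Their ratio was 0.56 [0.36, 0.76] in CPM and 0.12 [-0.08, 0.32] per cell, and their level was above mature NK cells in C435A and level with them in WT. In the C435A library CD8 effector cells (218 CPM), mature NK cells (213 CPM) and type 2 conventional DC (172 CPM) followed with overlapping intervals. Type 2 conventional DC had 148 CPM in the WT library, a ratio of 0.22 [-0.32, 0.77], and the gene was listed at 0 UMIs in migratory DC of the C435A library and at 5 UMIs in those of the WT library. B cells served as background, with 4.17 CPM in the C435A library and 2.83 CPM in the WT library. Neutrophils had 92.0 CPM in the C435A library, but their 54 UMIs came from 14 cells, with 19 in a single cell, against 2 UMIs in the WT library. The macrophage genes C1qa, C1qb and C1qc summed to 1565 CPM in neutrophils of C435A and 138 CPM in those of WT, with a UMI in 5.0% of cells in C435A and 15.1% in WT, and their part in the result was not tested.

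Cx3cr1 had the largest positive ratios of the 4 genes in CD8 and CD4 T cells. CD8 T cells held 2298 UMIs in the C435A library and 464 in the WT library, or 169.9 CPM in C435A and 66.7 in WT, a ratio of 1.35 [1.2, 1.5] in CPM and 2.15 [2.00, 2.29] per cell. CD4 T cells held 158 UMIs in the C435A library and 18 in the WT library, or 42.3 CPM in C435A and 7.30 in WT (2.54 [1.83, 3.33]). In the CD4 effector gate, 43.7% of CD4 T cells in C435A and 12.99% in WT, Cx3cr1 was 63.8 CPM in C435A and 38.1 in WT (0.74 [-0.05, 1.64]). Thinned to 1000 UMIs, 5.25% of CD4 effector cells in C435A and 6.25% in WT had a Cx3cr1 UMI, a difference of -1.0 points [-7.98, 3.37]. In cycling CD4 T cells there were 63 UMIs in 192 cells of the C435A library and 0 in 38 cells of the WT library. With the 0 set to 3 counts the level was 6.18-fold higher. The lower limit of the log2 ratio was 2.29 in CPM and 1.715 per cell. Thinned to 1000 UMIs, 4.69% of these cycling cells in C435A and 0.0% in WT had a Cx3cr1 UMI, a difference of 4.69 points [-4.75, 8.67]. T cells with a Foxp3 UMI had 95.4 CPM in 58 cells of the C435A library and 33.9 CPM in 100 cells of the WT library (1.49 [0.56, 2.46]), but the 27 UMIs in C435A came from 6 cells and the 17 UMIs in WT from 2 cells, with 12 in a single cell. Thinned to 1000 UMIs, 14.4% of CD8 T cells in the C435A library and 4.61% in the WT library had a Cx3cr1 UMI, a difference of 9.74 points [8.01, 11.5], against 0.33% in C435A and 0.272% in WT of B cells. B cells had median depths of 2072.0 UMIs in C435A and 1894.0 in WT, and unthinned the CD8 shares were 32.7% in C435A and 8.53% in WT.

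Within CD8 T cells Cx3cr1 was higher in the effector gate, at 218 CPM in the C435A library and 88.2 CPM in the WT library (1.31 [1.13, 1.49]). In cycling cells it was 163 CPM in the C435A library and 196 CPM in the WT library (-0.27 [-0.56, 0.04]), and the naive gate held 1 UMI in C435A and 7 in WT. Cycling cells alone carried 26.7% of all Cx3cr1 UMIs of the C435A library and 4.84% of those of the WT library. The macrophage and monocyte genes C1qa, C1qb, C1qc, Ear2, Marco and Csf1r, none at 0, summed to 21.1 CPM in CD8 T cells of the C435A library and 54.6 CPM in those of the WT library. The T cell gate admits at most 2 UMIs of these genes in a cell, so their sums were held low beforehand. In CD8 T cells with a Cx3cr1 UMI they were 21.5 CPM in C435A and 53.0 in WT. In those without they were 20.95 CPM in C435A and 54.8 in WT. The part of these genes in the Cx3cr1 result was not tested.

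In the 2 highest effector bins S1pr5 and Cx3cr1 were both lower in the C435A library. From 5% effector UMIs upwards S1pr5 was 220.4 CPM in 258 cells of the C435A library and 319.6 CPM in 96 cells of the WT library (-0.54 [-0.90, -0.16]). Cx3cr1 was 637 CPM in the C435A library and 801 CPM in the WT library (-0.33 [-0.55, -0.10]). Between 2% and 5% of effector UMIs S1pr5 was 68.5 CPM in C435A and 118 in WT (-0.79 [-1.39, -0.16]) and Cx3cr1 was 259 CPM in C435A and 392.2 in WT (-0.60 [-0.92, -0.27]). Below 0.3% there were at most 2 UMIs of S1pr5 in any bin of either library, and at most 9 of Cx3cr1. Between 1% and 2%, S1pr5 had 8 UMIs in C435A and 3 in WT (0.29 [-1.77, 2.84]), and between 0.3% and 1% it had 5 in C435A and 0 in WT. So from 2% upwards both genes were lower in the C435A library, whereas over all non-cycling CD8 T cells they were higher (1.60 for S1pr5 and 1.69 for Cx3cr1). The last bin has no upper limit, so the effector share of its cells can differ between the libraries. The bin of 2% to 5% held 285 cells in C435A and 96 in WT, and the bin below 0.1% held 372 cells in C435A and 997 in WT.

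**Figure D4:**
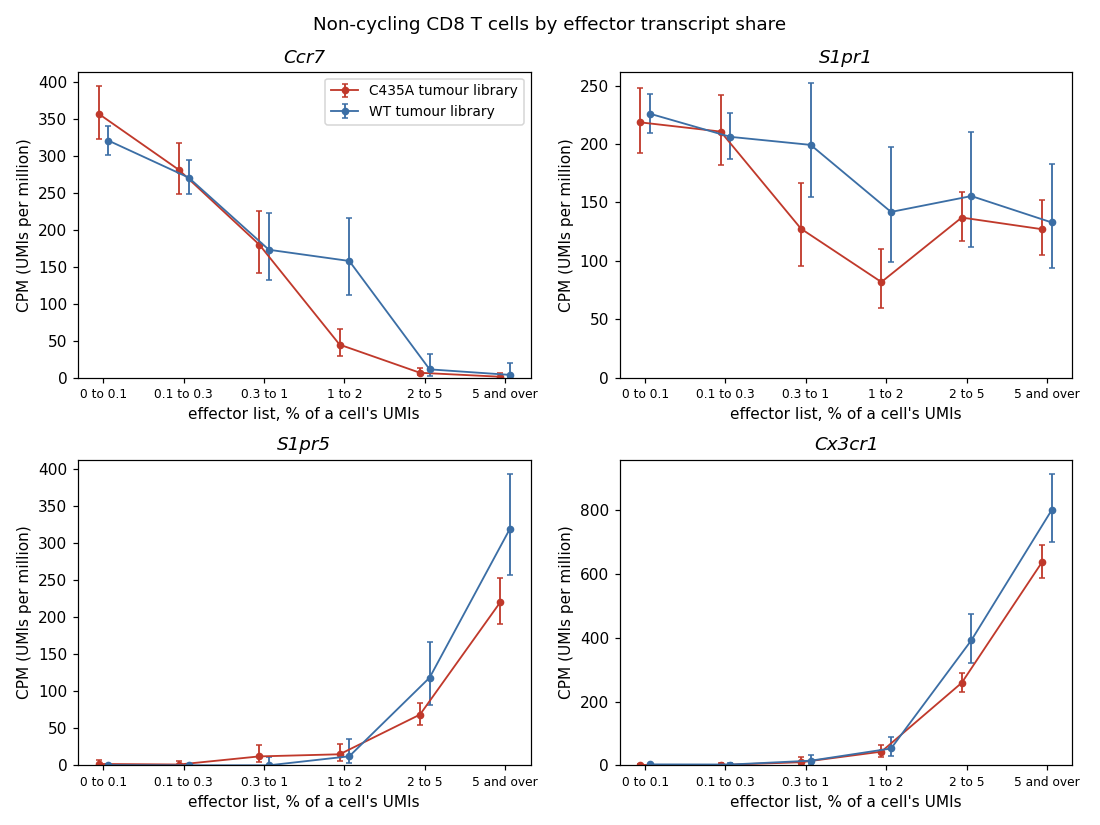
Level of each receptor gene (y axis, CPM) in non-cycling CD8 T cells by the share of a cell's UMIs from 7 effector genes (x axis, 6 bins), with the C435A library in red and the WT library in blue; error bars are exact 95% Poisson intervals. Ccr7 reaches 1 UMI per library in the last bin, S1pr1 stays between 81.8 and 226 CPM throughout, and S1pr5 and Cx3cr1 are highest in the last bin, lower in the C435A library.

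In NK cells Cx3cr1 was lower in the C435A library, as S1pr5 was in CPM. It had 315 UMIs in the C435A library and 181 in the WT library, or 161 CPM in C435A and 230.3 in WT, a ratio of -0.52 [-0.79, -0.25] in CPM and -0.47 [-0.73, -0.19] per cell. In the mature NK gate the levels were 213 CPM in the C435A library and 314 CPM in the WT library (-0.56 [-0.86, -0.26]). In that gate 1 of the 3 measured receptor genes was higher by 1.5-fold, against 12.3% of genes: S1pr1, with 26 UMIs in C435A and 6 in WT and an interval that held 0 (0.71 [-0.61, 2.28]). None of the 3 was lower, against 8.76% of genes. Thinned to 1000 UMIs the shares of NK cells with a UMI were 12.8% in the C435A library and 14.9% in the WT library, with a difference of -2.15 points [-6.82, 2.04]. None of the 3 receptor genes with at least 20 UMIs in NK cells passed 1.5-fold, against 9.84% of 8797 genes higher and 7.51% lower. The macrophage and monocyte genes summed to 41.3 CPM in NK cells of the C435A library and 76.4 CPM in those of the WT library, and the melanoma genes summed to 915 CPM in C435A and 129.8 in WT; their part in the NK result was not tested.

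Within single cells S1pr5 went with Cx3cr1, and Ccr7 was low where Cx3cr1 was found. In CD8 T cells with an S1pr5 UMI, Cx3cr1 was 449.8 CPM, against 102 CPM in those without, in the C435A library, and 708 against 37.3 CPM in the WT library. Ccr7 was 7.88 CPM in CD8 T cells with a Cx3cr1 UMI, against 108 CPM in those without, in the C435A library, and 40.5 against 276 CPM in the WT library. Median depths with and without a Cx3cr1 UMI were 6089.0 against 3685.0 UMIs in C435A and 2996.0 against 3147.5 in WT. S1pr1 was 116 CPM with and 115 CPM without a Cx3cr1 UMI in the C435A library, so that it was not set apart there, and 133 against 204 CPM in the WT library. In NK cells Cx3cr1 was 203 CPM with an S1pr5 UMI and 132 CPM without in the C435A library, and 324 against 164 CPM in the WT library. Over 16 gates in 2 libraries, 32 points that share their libraries and depth, Pearson's r of log2(CPM + 10) was 0.74 between S1pr5 and Cx3cr1 and 0.61 between Ccr7 and S1pr1. It was -0.39 between Ccr7 and Cx3cr1, -0.34 between Ccr7 and S1pr5, -0.12 between S1pr1 and Cx3cr1, and 0.01 between S1pr1 and S1pr5.

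**Figure D5:**
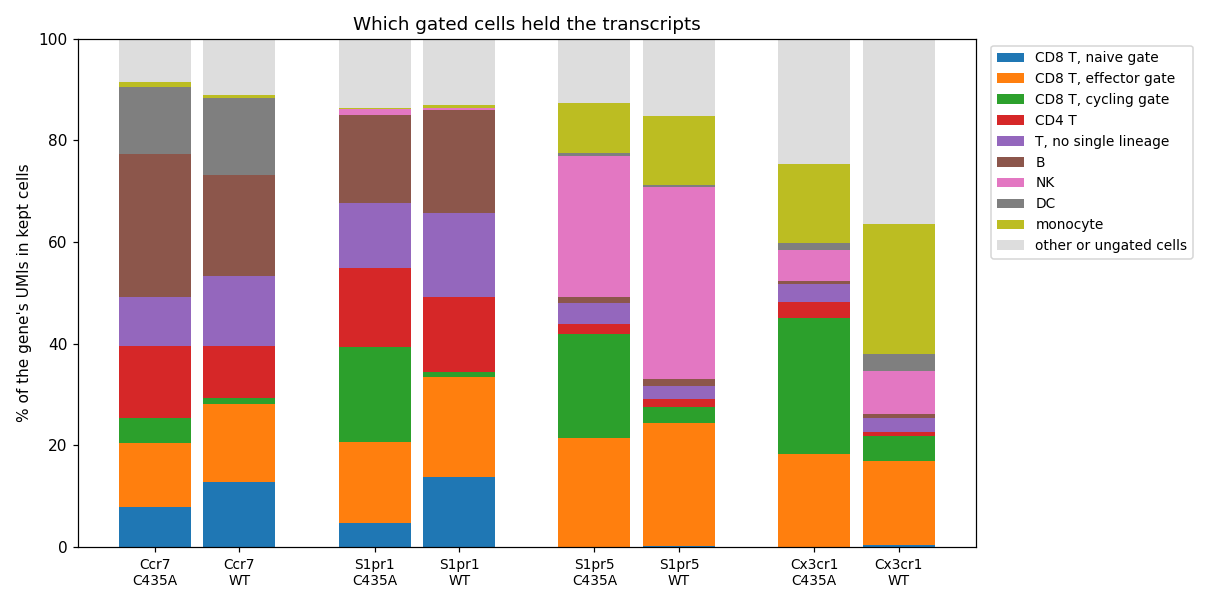
Share of each gene's UMIs in kept cells (y axis, %) that came from each gate, with the C435A library left of the WT library for each gene (x axis). CD8 T cells in the cycling gate held 26.7% of Cx3cr1 UMIs in the C435A library and 4.84% in the WT library, and NK cells held 27.7% of S1pr5 UMIs in the C435A library and 37.8% in the WT library.

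Among the 11596 genes with enough UMIs, those whose pattern over the 32 points was most like that of Ccr7 were Plekhg2 (r = 0.86), Pcgf5 (0.84), Zeb1 (0.84), Rps26-ps1 (0.80) and Rassf2 (0.80). For S1pr1 they were Gm8369 (0.97), Dtx1 (0.96), Prkd2 (0.96), Dgka (0.96) and Ddb2 (0.95). For S1pr5 they were Dapk2 (0.92), Klrc2 (0.92), Fasl (0.91), Nrarp (0.91) and Arl4d (0.91), of which Klrc2 encodes an NK receptor and Fasl a death ligand of cytotoxic cells. For Cx3cr1 they were Rap1gap2 (0.84), the monocyte chemokine receptor gene Ccr2 (0.82), Ifngr1 (0.82), 1700020L24Rik (0.79) and Cert1 (0.76).

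Other genes of the same pathways were counted by list. Of the 10 measured homing chemokine receptors in CD8 T cells, 3 were higher and 4 lower by 1.5-fold in the C435A library, against 18.4% and 21.0% of all genes, with a median ratio of -0.11 against -0.02 over all genes. Ccr2, a receptor for inflammatory chemokines, was among the higher genes (1951 UMIs in C435A and 223 in WT, 2.17 [1.97, 2.38]). Ccr9, a gut homing receptor, was lowest in this list in CD8 T cells (276 UMIs in C435A and 591 in WT, -2.06 [-2.27, -1.85]). In CD4 T cells Ccr9 ran the other way, with 126 UMIs in the C435A library and 7 in the WT library (3.57 [2.49, 4.91]), and 5 of 11 receptors were higher and 2 lower, against 13.8% and 14.0% of all genes, with a median of 0.36 against 0.04. In B cells, where 4.29% of all genes were higher and 6.55% lower, 2 of 11 were higher, among them Cxcr3 (219 UMIs in C435A and 76 in WT, 1.56 [1.17, 1.95]), and 2 lower, among them Ccr9 (17 UMIs in C435A and 33 in WT, -0.93 [-1.86, -0.04]). The effector genes, which B cells should mostly lack, summed to 536 CPM in B cells of the C435A library and 173 CPM in those of the WT library, and their part in the Cxcr3 value was not tested.

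Further S1P receptors, kinases, the lyase, phosphatase and transporters, and Cd69, formed the S1P system list. In CD8 T cells 1 of 6 measured genes was higher and 0 were lower, near the 18.4% of all genes that were higher there: S1pr4, which encodes another S1P receptor of lymphocytes, was 187 CPM in the C435A library and 117 CPM in the WT library, a ratio of 0.68. In CD4 T cells 2 of 6 were higher and 0 lower, against 13.8% and 14.0% of all genes, with S1pr4 at 213 CPM in C435A and 126 in WT. In B cells none of 7 passed 1.5-fold, against 4.29% of all genes higher and 6.55% lower. In NK cells none of 6 did, against 9.84% higher and 7.51% lower, so few such genes would be found in lists of this size. The median was 0.08 in B cells and 0.09 in NK cells. Of the signalling genes, which encode G protein subunits, receptor kinases, arrestins and their regulators, 1 of 11 was higher and 2 lower in CD8 T cells, near or under the shares of all genes there. Arrb1, an arrestin gene, was lower there (52 UMIs in the C435A library and 81 in the WT library, -1.60 [-2.13, -1.08]) and in CD4 T cells (26 UMIs in C435A and 33 in WT, -0.94 [-1.74, -0.16]).

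Of the transcription factors known to act on these receptors, 4 of 9 were higher and 3 lower in CD8 T cells, against 18.4% and 21.0% of all genes, with a median of -0.16. Tbx21, which encodes the effector factor T-bet, was 109 CPM in the C435A library and 29.8 CPM in the WT library (1.88), Zeb2 was 129 CPM in C435A and 68.7 in WT (0.91), and Prdm1 had 326 UMIs in C435A and 41 in WT (2.03 [1.56, 2.54]). Klf2 was 399 CPM in the C435A library and 630 CPM in the WT library (-0.66), and the naive T cell factors Tcf7 (-1.42) and Lef1 (-1.30) were lower as well. In CD4 T cells 2 of 9 were higher and 2 lower, against 13.8% and 14.0% of all genes. Tbx21 was among the higher (275 UMIs in C435A and 40 in WT, 2.18 [1.70, 2.70]) and Lef1 among the lower (1056 UMIs in C435A and 1290 in WT, -0.89 [-1.01, -0.77]). In NK cells none of 9 passed 1.5-fold, against 9.84% of all genes higher and 7.51% lower, with Tbx21 at 0.11, Zeb2 at -0.11 and Klf2 at -0.51. Of the adhesion genes, 5 of 9 were higher and 1 lower in CD8 T cells (18.4% and 21.0% of all genes, median of the list 0.60). Among CD4 T cells 6 of 9 were higher and 0 lower (13.8% and 14.0% of all genes, median of the list 0.71). Itga1, a collagen receptor gene, was higher in CD4 T cells (104 UMIs in C435A and 13 in WT, 2.40 [1.56, 3.36]). Itgae, which retains T cells in epithelium, was lower in CD8 T cells (150 UMIs in C435A and 379 in WT, -2.30 [-2.58, -2.02]).

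In the DC gates together, none of the receptor genes with at least 20 UMIs, Ccr7 and Cx3cr1, passed 1.5-fold, against 10.8% of 8994 genes higher and 8.94% lower. Of the homing receptors 2 of 8 were higher, among them Cxcr3 (39 UMIs in C435A and 36 in WT, 0.69 [0.00, 1.39]), and Ccr1, a receptor for inflammatory chemokines, was lower (17 UMIs in C435A and 64 in WT, -1.33 [-2.20, -0.55]). The ligands were sparse in this CD45 sort: over all kept cells Cx3cl1 had 157 UMIs in the C435A library and 113 in the WT library, Ccl21a had 1 in C435A and 40 in WT, and Ccl19 had 0 in both.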

How the data were processed

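The files deposited by the authors hold raw UMI counts per gene and barcode. The labels' protocols describe collagenase digestion of lung tumour tissue and a sort. They name both BD Rhapsody and 10x 3′ chemistry, so the platform is uncertain. Per the submitters' processing notes and the file headers, Cell Ranger 7.2.0 and GRCm38 were used. For cell calling and introns, the settings are not given here.

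The filters (200 genes and 500 UMIs as minimum, 20% mitochondrial UMIs as limit) removed 102 barcodes in the C435A library and 157 in the WT library. The highest Scrublet scores, 0.8% per 1000 barcodes, were then removed as doublets, 852 and 812 barcodes (Python 3.11.15, scanpy 1.11.5). Cells were gated by marker UMIs: at least 2 of the own list (3 for migratory DC, plasma cells, monocytes, alveolar macrophages and neutrophils), at most 1 of the T or B list of another lineage and at most 2 of macrophage genes for lymphocytes and DC. CD8 and CD4 T cells needed a UMI of their own coreceptor and 0 of the other. T cell states were set in the order cycling (3 UMIs), effector (3) and naive (2). The gates of monocytes, neutrophils and alveolar macrophages were tightened after values were seen.

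Summed UMIs of a gate were scaled to its total. Ratios have exact conditional intervals, levels exact Poisson intervals and shares exact Clopper-Pearson intervals, at 95% (scipy 1.17.1). These cover counting error only. A count of 0 was set to 3 in a fold. Genes with at least 20 UMIs in a gate were counted as higher or lower at 1.5-fold. No test between groups was possible with 1 library each. edgeR 4.0.16 and DESeq2 1.42.0 in R 4.3.3 gave scaling factors only.

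Named pathway genes are those of fixed lists with at least 50 UMIs past 1.5-fold, at most 3 each way per gate. Some genes that this rule or the gates use are not reported here. S1pr4, Klf2, Tcf7, Zeb2 and Tbx21 outside that rule, the ligands and the plasma cell, neutrophil and monocyte values were picked after their values were seen. Like patterns were ranked among genes with at least 200 UMIs. The receptor genes, lists and gates were chosen with earlier results of these data known. Promoters came from RefSeq, which matched 2 of the 4 genes.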

Additional observations from a re-analysis of the deposited data

How the results depend on the processing

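No paired analysis was possible because each group was 1 library. Over 12 ratios, 6 alternative values reversed the direction. Per cell in place of per UMI, Ccr7 in B cells was 0.10, S1pr1 in CD8 T cells 0.023 and S1pr1 in B cells 0.076. With T cell states of at least 50 cells weighted alike, Ccr7 in CD4 T cells was 0.048. With effector bins weighted alike, S1pr5 in CD8 T cells was -0.50 and Cx3cr1 -0.41. These are ratios of the mean CPM of the bins, to which the last bin, without an upper limit, gave the largest part for both genes. The bins also leave out cycling cells; without those and unweighted, the CD8 ratios were 1.60 for S1pr5 and 1.69 for Cx3cr1, -0.83 for Ccr7 and -0.38 for S1pr1, and the CD4 ratio of Ccr7 was -0.57. The CD4 weighting left out the cycling state; with it, Ccr7 was -0.059 and S1pr1 -0.031. The cause was not tested.

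Other values moved without reversing. States weighted alike gave -0.53 for Ccr7, -0.12 for S1pr1, 0.79 for S1pr5 and 0.41 for Cx3cr1 in CD8 T cells and -0.17 for S1pr1 in CD4 T cells. Effector bins weighted alike gave -0.11 for Ccr7 and -0.23 for S1pr1. Per cell, CD8 T cells had -1.05 for Ccr7, 1.91 for S1pr5 and 2.15 for Cx3cr1, CD4 T cells had -0.36 for Ccr7 and -0.072 for S1pr1, and DC had -0.59 for Ccr7. Cells weighted alike gave -1.18 for Ccr7 and -0.55 for S1pr1 in CD8 T cells. Without any macrophage UMI, Ccr7 was -1.72 in CD8 and -1.01 in CD4 T cells. Without UMIs of other lineages, Ccr7 in DC was -0.65. With at most 1 NK UMI in T cells, S1pr5 was 1.64 and Cx3cr1 1.85. Median ratio factors gave -0.67 for S1pr1 in CD8 T cells. The cause of these was not tested.

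A higher minimum of own markers, keeping doublets, the 10% mitochondrial limit, TMM factors and totals over genes with 20 UMIs moved none of the 12 ratios by more than their counting error. The CD8 ratio of Ccr7 was -1.75 with TMM factors; median ratio factors changed the log2 ratio of CD8 totals by -0.11, which raises every CD8 ratio. The share differences without thinning or with 500 UMIs kept their direction in CD8 and CD4 T cells, and changed it in 1 of 2 settings for S1pr1 in B and NK cells and S1pr5 in NK cells. The alternatives by cell, without cycling cells, with all CD4 states, by macrophage UMIs, by NK UMIs and by effector bins were chosen after seeing the data.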
